A study of Saccharomyces cerevisiae with 9 samples.

Results

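The genes described here are the 8 expressed genes that lie directly left and right of 4 deleted loci in Saccharomyces cerevisiae: PRP18 and STF2 beside ECT1, YGR201C and YCH1 beside PCT1, TOM22 and DGR1 beside CPT1, and CIA2 and NDT80 beside EPT1. They were chosen by position, with earlier results of these data known, and they are 8 of 7122 genes in the deposited table. All 8 passed the filter on low counts, which left 6083 genes to test. Polyadenylated RNA was sequenced from 9 libraries in 3 groups of 3: a strain without ECT1 and PCT1 (ect1Δ pct1Δ), a strain without CPT1 and EPT1 (cpt1Δ ept1Δ), and wild type (WT). All groups share the CEN.P.K prototrophic background, minimal synthetic medium with 2% glucose and harvest in log phase, and no agent was added to any of them. The labels name neither the cassette that replaced each gene, nor the ends of each deletion, nor whether a strain is a single clone, nor whether the replicates of a group were grown apart. The p-values therefore reflect the scatter among libraries of the same group, pooled over the 3 groups and drawn towards that of other genes. That scatter may be purely technical. Each strain lacks both of its loci at once, so the loss of the neighbouring gene and the loss of the strain's other gene cannot be told apart.

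The deleted genes belong to the CDP-ethanolamine and CDP-choline branches of phospholipid synthesis: ECT1 and PCT1 encode the enzymes that make the CDP-linked head groups, and EPT1 and CPT1 the transferases of the following step. Their neighbours have no known part in that route. Yeast genes lie close together, so a neighbour's promoter or terminator can reach into, or end just beside, a gene that a deletion cassette replaces. Each flanking gene can therefore be read in 2 ways, in the strain that lacks its own neighbour and in the other deletion strain, where its locus is whole.

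Positions are those of build R64, and no listed gene overlaps a flanking or a deleted gene. PRP18 (YGR006W, chromosome VII, 506070 to 506825, plus strand) lies 143 bases upstream of ECT1 on the same strand. STF2 (YGR008C, chromosome VII, 508110 to 508364, minus strand) ends 169 bases from the end of ECT1, and the pair point at each other. YGR201C (chromosome VII, 902520 to 903197, minus strand) lies 276 bases downstream of PCT1 on the same strand. YCH1 (YGR203W, chromosome VII, 905237 to 905683, plus strand) starts 488 bases from the start of PCT1, and the pair point away from each other. TOM22 (YNL131W, chromosome XIV, 378767 to 379225, plus strand) points at CPT1 across 332 bases. DGR1 (YNL130C-A, chromosome XIV, 381245 to 381391, minus strand) lies 413 bases upstream of CPT1 on the same strand. CIA2 (YHR122W, chromosome VIII, 353625 to 354320, plus strand) lies 494 bases upstream of EPT1, and NDT80 (YHR124W, chromosome VIII, 356561 to 358444, plus strand) 479 bases downstream of it, all on the same strand. The start codon therefore faces the deleted gene in YGR201C, YCH1 and NDT80, and the stop codon faces it in the other 5.

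**Figure D1:**
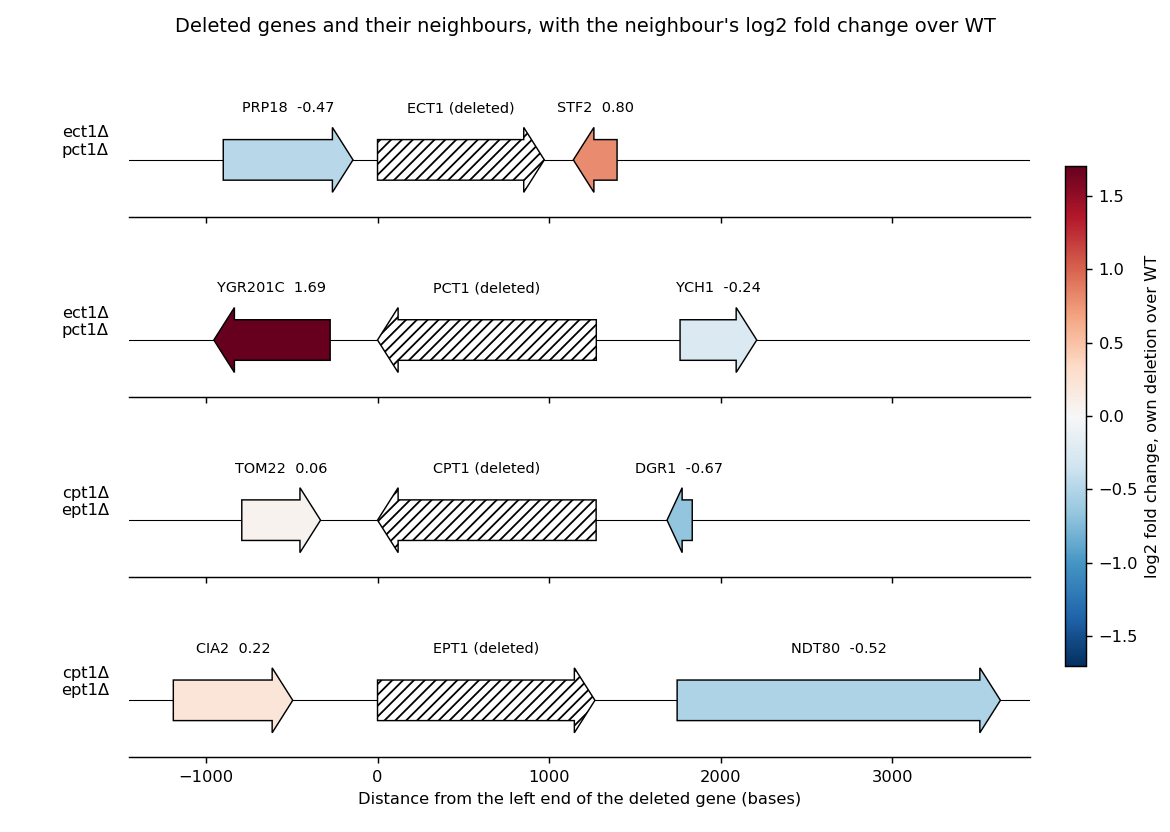
Maps of the 4 deleted loci, drawn to scale; the x axis is the distance in bases from the left end of the deleted gene, arrows show the direction of transcription, hatched arrows are the deleted genes, and colour and number give each neighbour's log2 fold change in the strain without its locus over WT. YGR201C (1.69) and STF2 (0.80) carry the 2 largest positive values, and YGR201C, YCH1 and NDT80 start on the side of the deleted gene.

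The promoters of 3 flanking genes are shown because their start regions or values bear on the results: YGR201C and STF2, which passed the test, and NDT80, whose promoter also lies between it and the deleted gene. Each window runs from 250 bases before to 50 bases after the start of the coding sequence, 5′ to 3′ on the gene's own strand, read from the RefSeq genome of build R64, a reference strain and not CEN.P.K. Capitals mark matches, on either strand, to the letters TATAAA, the TATA box (TTTATA on the other strand), and AGGGG, the stress response element bound by Msn2 (CCCCT on the other strand).
YGR201C (chrVII:903148-903447, minus strand): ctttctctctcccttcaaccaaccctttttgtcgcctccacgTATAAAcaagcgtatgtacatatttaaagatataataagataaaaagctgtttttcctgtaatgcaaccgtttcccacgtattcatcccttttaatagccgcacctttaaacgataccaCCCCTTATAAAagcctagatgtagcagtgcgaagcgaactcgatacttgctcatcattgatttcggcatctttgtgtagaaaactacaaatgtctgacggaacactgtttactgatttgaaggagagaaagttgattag
STF2 (chrVII:508315-508614, minus strand): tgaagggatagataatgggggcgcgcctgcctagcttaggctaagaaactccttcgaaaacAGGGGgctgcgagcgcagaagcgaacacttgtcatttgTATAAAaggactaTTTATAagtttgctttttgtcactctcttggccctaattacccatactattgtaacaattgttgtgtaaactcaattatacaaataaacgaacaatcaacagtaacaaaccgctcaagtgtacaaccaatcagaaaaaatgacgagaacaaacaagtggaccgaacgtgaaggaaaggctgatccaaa
NDT80 (chrVIII:356311-356610, plus strand): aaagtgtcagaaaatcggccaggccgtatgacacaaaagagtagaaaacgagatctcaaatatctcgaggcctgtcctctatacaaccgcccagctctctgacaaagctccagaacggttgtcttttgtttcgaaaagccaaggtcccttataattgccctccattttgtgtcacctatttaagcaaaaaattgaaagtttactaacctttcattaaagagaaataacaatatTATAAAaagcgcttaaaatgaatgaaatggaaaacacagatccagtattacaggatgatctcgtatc
The 250 bases before YGR201C lie wholly inside the 276 bases that separate it from PCT1, whereas those before STF2 lie on the side away from ECT1. YGR201C held TATAAA 208 and 84 bases before its start and CCCCT 89 bases before it. STF2 held TATAAA 151 bases before its start and its reverse 138 bases before, with AGGGG at 189. NDT80 held TATAAA 17 bases before its start and no AGGGG. Of the other 5 flanking genes CIA2 held 3 matches to TATAAA, PRP18 held 1 to AGGGG, and YCH1, TOM22 and DGR1 held neither. Among 6020 promoters of the same length 45.4% held TATAAA and 21.6% held AGGGG, so a match is a description of the letters and not of a site in use.

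The deletions themselves read as labelled. Summed over 3 libraries, ect1Δ pct1Δ held 3 counts of ECT1 and 22 of PCT1, which is 0.118% and 0.675% of WT (exact binomial 95% intervals 0.0243 to 0.345% and 0.423 to 1.02%, counting error only). In cpt1Δ ept1Δ the sums were 9 counts for CPT1 and 5 for EPT1, which is 0.126% and 0.107% of WT (0.0577 to 0.240% and 0.0348 to 0.25%). Total counts ranged from 5669951 to 11793688 per library. On the leading component of variation, which took 23.0% of the variance and did not separate the groups, ect1Δ pct1Δ replicate 2 (7.33) and WT replicate 3 (13.0) stood apart from the rest of their groups. On the second component, with 17.3% of the variance, the ect1Δ pct1Δ libraries (-5.69, -6.54 and -6.43) lay below all others (-1.27 to 12.3).

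Of the 8 flanking genes, 2 changed in the strain without their own neighbour, and both rose: YGR201C 3.22-fold beside PCT1 and STF2 1.74-fold beside ECT1, in ect1Δ pct1Δ. None of the 8 passed the test in the strain whose deletions lie elsewhere, nor did any there with DESeq2 or limma. By edgeR's quasi-likelihood test with Benjamini-Hochberg adjustment below 0.05, 0.46% of all tested genes passed in ect1Δ pct1Δ over WT and 0.132% in cpt1Δ ept1Δ over WT. At an unadjusted p below 0.05, 7 of 8 flanking genes were reached in the strain without their own neighbour and 0 of 8 in the other strain, where the background was 6.61% of all genes in ect1Δ pct1Δ over WT and 5.28% in cpt1Δ ept1Δ over WT. The 7 comprise both genes at ECT1, at PCT1 and at EPT1, and DGR1 at CPT1; leaving out WT replicate 1 or WT replicate 2 lowered this count to 4. The median size of the log2 fold change was 0.50 over the 8 genes beside their own deletion and 0.10 in the other strain, where all tested genes had 0.07 in ect1Δ pct1Δ over WT and 0.06 in cpt1Δ ept1Δ over WT. Directions were mixed, with 4 positive and 4 negative values. Both comparisons use the same WT libraries, so they are not independent.

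Levels below are CPM, counts scaled to library size with TMM factors, each given for replicates 1, 2 and 3, and log2 fold changes carry their SE. YGR201C encodes a protein of unknown function that resembles the gamma subunit of translation elongation factor 1B. It had 37.9, 45.9 and 44.7 CPM in ect1Δ pct1Δ, where its neighbour PCT1 is missing, 14.3, 14.6 and 14.4 CPM in cpt1Δ ept1Δ, and 10.2, 15.1 and 15.9 CPM in WT. Every ect1Δ pct1Δ library lay far above all 6 others, and the cpt1Δ ept1Δ and WT libraries overlapped. The log2 fold change in ect1Δ pct1Δ over WT was 1.69 ± 0.14 (edgeR with Benjamini-Hochberg adjustment, adjusted p = 1.15e-06), and in cpt1Δ ept1Δ over WT it was 0.12 ± 0.15. Set directly against each other, ect1Δ pct1Δ exceeded cpt1Δ ept1Δ 2.97-fold (adjusted p = 1.27e-06 by edgeR with Benjamini-Hochberg adjustment). The value over WT was 1.47 without WT replicate 1, its lowest library, 1.63 without ect1Δ pct1Δ replicate 2 and 1.81 without WT replicate 3. Its raw counts were 244, 534 and 256 in ect1Δ pct1Δ, 120, 165 and 163 in cpt1Δ ept1Δ, and 112, 95 and 96 in WT.

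STF2 encodes a small protein that helps the inhibitor of the mitochondrial ATP synthase act, and it is known as a gene of stationary phase and of desiccation tolerance. It had 68.5, 72.2 and 70.6 CPM in ect1Δ pct1Δ, where ECT1 is missing, 42.0, 40.2 and 46.2 CPM in cpt1Δ ept1Δ, and 39.7, 45.3 and 36.5 CPM in WT. Again the ect1Δ pct1Δ libraries stood above all 6 others, and the other 2 groups overlapped. In ect1Δ pct1Δ over WT the log2 fold change was 0.80 ± 0.09 (edgeR with Benjamini-Hochberg adjustment, adjusted p = 2.90e-05) and 0.08 ± 0.09 in cpt1Δ ept1Δ over WT. Between the strains ect1Δ pct1Δ was 1.65-fold higher (adjusted p = 6.05e-05 by edgeR with Benjamini-Hochberg adjustment). The value over WT was 0.78 without ect1Δ pct1Δ replicate 2 and 0.74 without WT replicate 3. STF2 and ECT1 point at each other, and the sources used here do not say if counting used strand, so reads of the opposite strand over STF2 cannot be told apart from its own.

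The partners of these genes at the same loci had negative values that did not pass the test. PRP18 encodes a splicing factor of the U5 snRNP that acts in the second catalytic step. It had 7.46, 7.39 and 8.38 CPM in ect1Δ pct1Δ, 12.6, 11.3 and 11.8 CPM in cpt1Δ ept1Δ, and 11.1, 12.8 and 7.81 CPM in WT. The ect1Δ pct1Δ libraries lay below every cpt1Δ ept1Δ library but overlapped WT, through WT replicate 3. The log2 fold change in ect1Δ pct1Δ over WT was -0.47 ± 0.18, or 72.3% of WT (edgeR with Benjamini-Hochberg adjustment, adjusted p = 0.584), and between the strains it was -0.62 ± 0.17 (adjusted p = 0.343 by the same test). Without WT replicate 3 the value over WT was -0.63, and without WT replicate 2 it was -0.33. PRP18 rested on 48, 86 and 48 counts in ect1Δ pct1Δ, 105, 128 and 133 in cpt1Δ ept1Δ, and 122, 81 and 47 in WT.

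YCH1 encodes a phosphatase that resembles Cdc25, and it shares its intergenic region with PCT1. It had 25.3, 31.1 and 30.7 CPM in ect1Δ pct1Δ, 34.8, 33.3 and 38.1 CPM in cpt1Δ ept1Δ, and 35.0, 34.7 and 33.6 CPM in WT. All ect1Δ pct1Δ libraries lay below the 6 others, by a margin smaller than the range among themselves. Over WT the log2 fold change was -0.24 ± 0.10, or 84.7% of WT, with a 95% interval of -0.45 to -0.03 (edgeR with Benjamini-Hochberg adjustment, adjusted p = 0.667). Without ect1Δ pct1Δ replicate 1, its lowest library, the value over WT was -0.16, against -0.31 without ect1Δ pct1Δ replicate 2. In cpt1Δ ept1Δ over WT it was 0.04 ± 0.10.

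At the loci deleted in cpt1Δ ept1Δ no flanking gene passed the test, and NDT80 came nearest to it. NDT80 encodes the transcription factor that switches on the middle genes of meiosis, and it is kept low in vegetative cells. It had 14.7, 13.7 and 14.9 CPM in cpt1Δ ept1Δ, where its neighbour EPT1 is missing, 21.6, 18.8 and 23.2 CPM in ect1Δ pct1Δ, and 21.7, 22.2 and 18.1 CPM in WT. The cpt1Δ ept1Δ libraries lay below all 6 others, and the other 2 groups overlapped. The log2 fold change in cpt1Δ ept1Δ over WT was -0.52 ± 0.13, or 69.5% of WT, with a 95% interval of -0.79 to -0.26 (edgeR with Benjamini-Hochberg adjustment, adjusted p = 0.180). In ect1Δ pct1Δ over WT it was 0.02 ± 0.12, and cpt1Δ ept1Δ over ect1Δ pct1Δ gave -0.54 ± 0.13 (adjusted p = 0.184 by edgeR with Benjamini-Hochberg adjustment). By unadjusted p, NDT80 ranked number 20 of 6083 genes in cpt1Δ ept1Δ over WT. Its raw counts were 123, 155 and 168 in cpt1Δ ept1Δ, 139, 219 and 133 in ect1Δ pct1Δ, and 239, 140 and 109 in WT.

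CIA2, on the other side of EPT1, encodes a subunit of the complex that delivers iron-sulfur clusters to cytosolic and nuclear proteins. It had 83.7, 87.0 and 89.3 CPM in cpt1Δ ept1Δ, 74.3, 82.1 and 77.5 CPM in ect1Δ pct1Δ, and 67.0, 75.2 and 82.4 CPM in WT. The cpt1Δ ept1Δ libraries lay above the 6 others, with a gap to the highest of them that was smaller than the WT range. In cpt1Δ ept1Δ over WT the log2 fold change was 0.22 ± 0.08, with a 95% interval of 0.06 to 0.38 (edgeR with Benjamini-Hochberg adjustment, adjusted p = 0.651). Without WT replicate 1 the value over WT was 0.14, and without WT replicate 3 it was 0.29. In ect1Δ pct1Δ over WT it was 0.07 ± 0.08.

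TOM22, which encodes a central receptor of the complex that imports proteins through the outer mitochondrial membrane, was the flanking gene with the smallest value beside its own deletion. It had 193, 176 and 176 CPM in cpt1Δ ept1Δ, where CPT1 is missing, 182, 201 and 185 CPM in ect1Δ pct1Δ, and 175, 168 and 181 CPM in WT. The cpt1Δ ept1Δ libraries overlapped both other groups, and the ect1Δ pct1Δ libraries lay just above WT. The log2 fold change in cpt1Δ ept1Δ over WT was 0.06 ± 0.06 with a 95% interval of -0.07 to 0.18, so changes outside that interval were not seen at a gene that points at the deleted CPT1. In ect1Δ pct1Δ over WT it was 0.12 ± 0.06.

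DGR1, a short gene named for resistance to deoxyglucose in its mutant, lies upstream of CPT1. It had 1.67, 1.68 and 1.77 CPM in cpt1Δ ept1Δ, 2.33, 1.72 and 2.97 CPM in ect1Δ pct1Δ, and 2.36, 3.01 and 2.99 CPM in WT. The cpt1Δ ept1Δ libraries lay below WT but overlapped ect1Δ pct1Δ. These levels rest on 14, 19 and 20 counts in cpt1Δ ept1Δ, 15, 20 and 17 in ect1Δ pct1Δ, and 26, 19 and 18 in WT. In log2 terms cpt1Δ ept1Δ over WT gave -0.67 ± 0.30, with a 95% interval of -1.30 to -0.03 (edgeR with Benjamini-Hochberg adjustment, adjusted p = 0.938), and in ect1Δ pct1Δ over WT it was -0.29 ± 0.30. None of these differences passed the test.

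**Figure D2:**
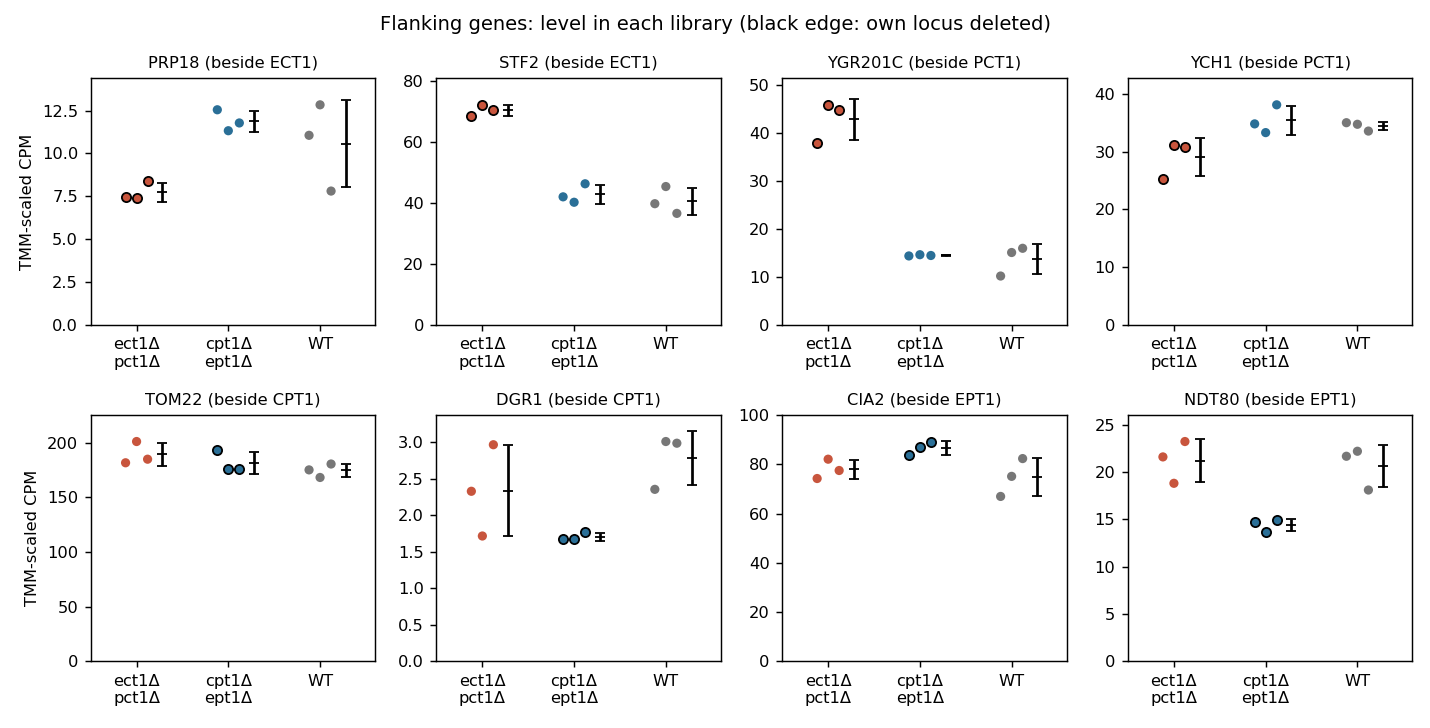
CPM of each flanking gene (y axis, TMM-scaled CPM) in every library of ect1Δ pct1Δ, cpt1Δ ept1Δ and WT; points are libraries in replicate order, bars are mean ± SD (n = 3), and black edges mark the strain without the neighbouring locus. STF2 and YGR201C stand above all other libraries in ect1Δ pct1Δ, and NDT80 stands below all others in cpt1Δ ept1Δ.

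Counting libraries alone, 3 of 4 genes beside ECT1 and PCT1 had all ect1Δ pct1Δ libraries above or below the other 6 (STF2 and YGR201C above, YCH1 below), as did 2.94% of all genes tested. Of the 4 genes beside CPT1 and EPT1, 2 had all cpt1Δ ept1Δ libraries on one side of the other 6 (CIA2 above, NDT80 below), as did 2.3% of all genes tested. The direct comparison of the strains, which uses no WT library, called 2 of 8 flanking genes, STF2 and YGR201C, against 0.197% of all tested genes. At an unadjusted p below 0.05 it reached 5 of 8, against 4.72% of all genes: these 2, PRP18, YCH1 and NDT80. For CIA2 the strains differed by 0.15 ± 0.07 and for DGR1 by -0.38 ± 0.31 on the log2 scale, cpt1Δ ept1Δ over ect1Δ pct1Δ.

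**Figure D3:**
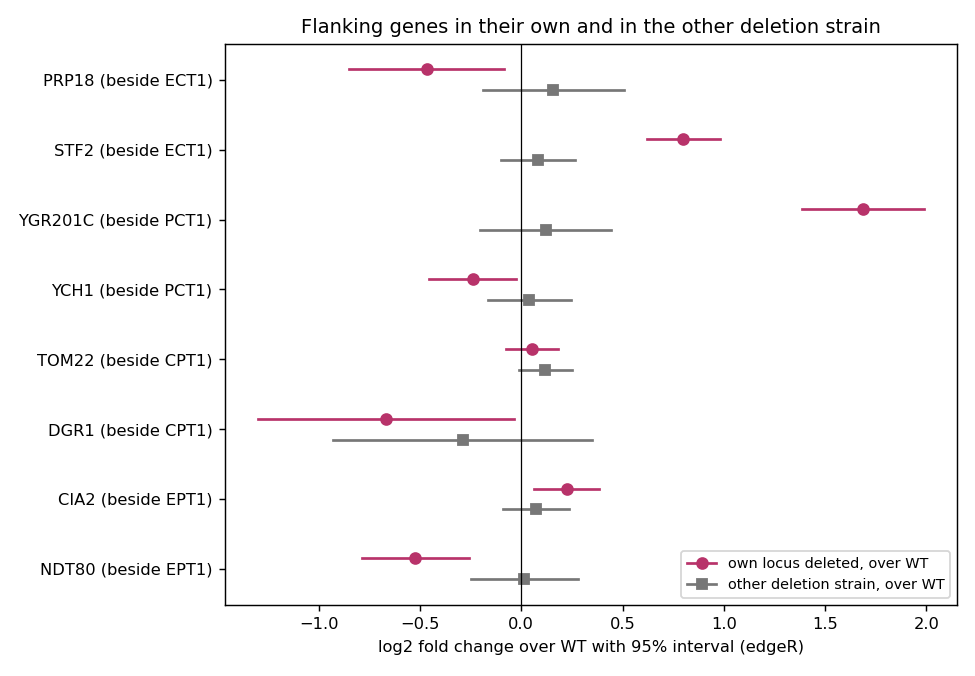
Log2 fold change over WT (x axis, with 95% intervals from edgeR) of each flanking gene in the strain without its own neighbour (circles) and in the other deletion strain (squares). STF2 (0.80) and YGR201C (1.69) lie apart from their squares (0.08 and 0.12), and TOM22's 2 values overlap.

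The 3 genes whose start codon faces the deleted gene had log2 fold changes from -0.52 to 1.69, with 1 positive value, and the 5 whose stop codon faces it had -0.67 to 0.80, with 3 positive values. By distance, PRP18, STF2 and YGR201C, the nearest at 143, 169 and 276 bases, had -0.47, 0.80 and 1.69. TOM22, DGR1 and NDT80, at 332, 413 and 479 bases, had 0.06, -0.67 and -0.52, and YCH1 and CIA2, the farthest at 488 and 494 bases, had -0.24 and 0.22. With 8 genes, no test of orientation or distance was made.

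**Figure D4:**
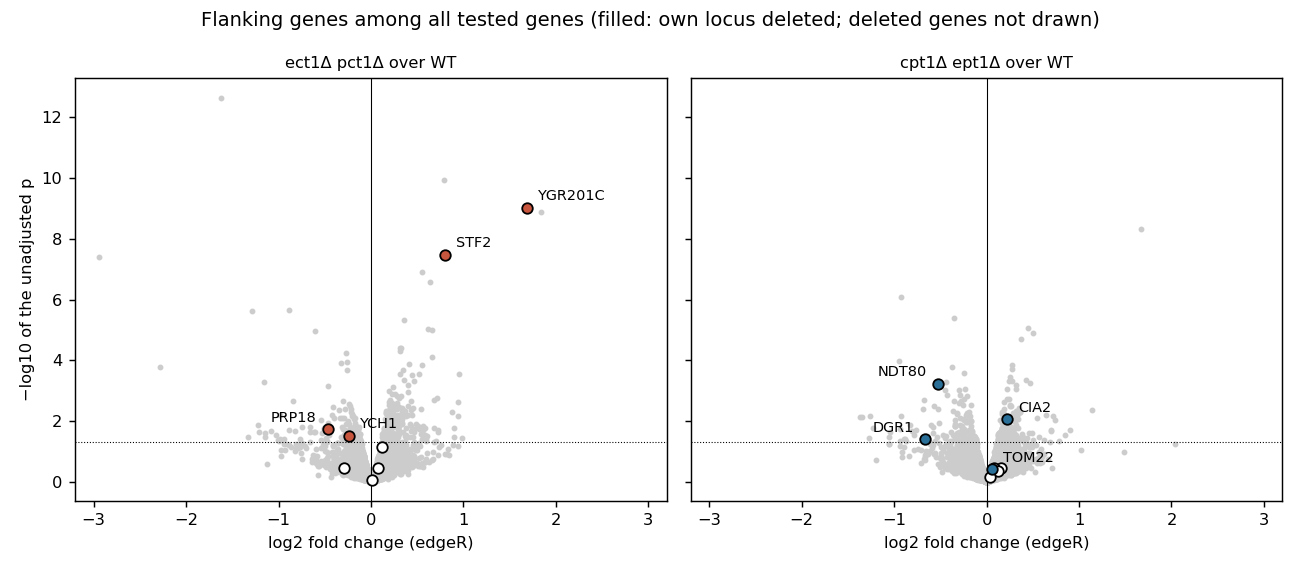
Volcano plots of ect1Δ pct1Δ over WT and cpt1Δ ept1Δ over WT (x axis, log2 fold change; y axis, minus log10 of the unadjusted p; the dotted line marks 0.05); grey points are all other tested genes, filled points are flanking genes of that strain's loci, open points the other flanking genes, and the deleted genes are not drawn. YGR201C and STF2 are among the top points in ect1Δ pct1Δ, where they ranked number 5 and number 7 by p.

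Beyond the flanking genes, no neighbour of a deleted gene passed the test in the strain that lacks that deleted gene. Among the 5 tested genes on each side of every deleted gene, 40 in all, 2 passed the test in the strain without that locus, STF2 and YGR201C. None of the other 32 beyond the flanking genes passed it (edgeR with Benjamini-Hochberg adjustment), and 3 had an unadjusted p below 0.05, or 9.38%. Over all tested genes 0.46% passed in ect1Δ pct1Δ over WT and 0.132% in cpt1Δ ept1Δ over WT, so no call among 32 is near that share. At an unadjusted p below 0.05 the shares of all genes were 6.61% and 5.28%. Their log2 fold changes ranged from -0.31 to 0.22 with a median of 0.00, and the farthest lay 9333 bases from its deleted gene. The 3 were ADE3, the trifunctional enzyme of folate metabolism, with -0.15 ± 0.06, YPP1 with -0.18 ± 0.07 and CIR1 with 0.15 ± 0.07, all around PCT1. In cpt1Δ ept1Δ over WT, where PCT1 is whole, ADE3 had 0.02, YPP1 -0.21 and CIR1 -0.01. The next genes out from the called pair were SEC9, a SNARE of the plasma membrane beyond STF2, with 0.04 ± 0.07, and ELP2, a subunit of the Elongator complex beyond YGR201C, with 0.00 ± 0.06. Beyond PRP18, TFG2, a subunit of the general factor TFIIF, had 0.15 ± 0.08. On the other chromosomes the next genes were KRE33 (-0.08 ± 0.06), NRK1 (-0.05 ± 0.08), LSM12 (0.04 ± 0.06) and YHR127W (-0.01 ± 0.08). Widened to 10 genes on each side, 72 genes lay beyond the flanking genes and none passed the test, with 5 at an unadjusted p below 0.05. These counts too are near the shares over all tested genes.

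**Figure D5:**
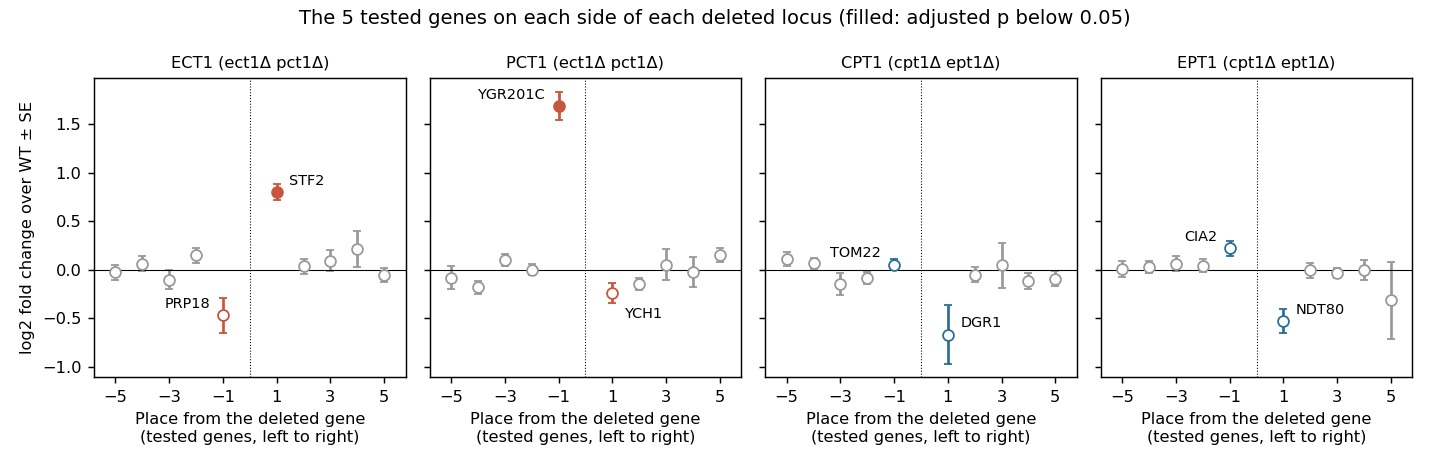
Log2 fold change over WT ± SE (y axis, edgeR) of the 5 tested genes on each side of each deleted gene in the strain that lacks it, by place from the deleted gene (x axis); filled points have an adjusted p below 0.05. Only STF2 and YGR201C are filled among these 40 genes, and the 32 genes at places 2 to 5 lie between -0.31 and 0.22.

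Among these 40 genes YNL134C, which lies at the fourth place left of CPT1, passed the test in ect1Δ pct1Δ over WT with 0.35 ± 0.06 (edgeR with Benjamini-Hochberg adjustment, adjusted p = 0.00214) and had 0.07 ± 0.06 in cpt1Δ ept1Δ over WT, the strain that lacks CPT1. It was also among the genes whose log2 CPM over the 9 libraries was most like that of the called pair. For STF2 the highest Pearson correlations were 0.97 with PHM8, a phosphatase gene, 0.97 with YNL134C and 0.95 with IMD2, an inosine monophosphate dehydrogenase gene. For YGR201C they were 0.95 with STF2, 0.95 with YNL134C and 0.94 with HTA1, a histone H2A gene. These coefficients describe 9 libraries that fall into 3 groups and differ in depth, and PHM8 (chromosome V), IMD2 (VIII), HTA1 (IV) and YNL134C (XIV) are on other chromosomes.

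Per length the flanking genes span a wide range of expression. In WT the mean FPKM was 379.5 for TOM22, 158.7 for STF2, 107.2 for CIA2, 76.85 for YCH1, 20.16 for YGR201C, 18.9 for DGR1, 13.98 for PRP18 and 10.95 for NDT80, and the library ranges of YGR201C, DGR1, PRP18 and NDT80 overlapped from neighbour to neighbour. NDT80 and TOM22 stood at the 13.4 and 92.1 percentile of all tested genes in WT. In ect1Δ pct1Δ YGR201C reached 63.37 FPKM, and its library range met that of YCH1, which had 65.2. STF2 kept its place below TOM22 at 277.1 FPKM in ect1Δ pct1Δ. In cpt1Δ ept1Δ the order ended with PRP18 (15.69 FPKM), DGR1 (11.6) and NDT80 (7.643), whose library ranges did not overlap.

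Genes of the same role elsewhere in the genome were read beside each flanking gene. Of 12 tested genes of the second splicing step and the U5 snRNP, none passed the test in ect1Δ pct1Δ over WT, 1 (PRP18) had an unadjusted p below 0.05, and the median was -0.02. After PRP18, ISY1 had the smallest p with -0.14 ± 0.12. Of 4 genes around the ATP synthase inhibitor, STF2 alone passed; INH1, the inhibitor, had 0.15 ± 0.09, STF1 0.02 ± 0.15 and TMA10, the paralog of STF2, 0.51 ± 0.19 in ect1Δ pct1Δ over WT (edgeR with Benjamini-Hochberg adjustment, adjusted p = 0.567). TMA10 had 0.55 ± 0.18 in cpt1Δ ept1Δ over WT (adjusted p = 0.651 by the same test). TMA10 and STF2 share 209 bases with 72.2% identity, and the sources used here do not say how reads with several matches were counted.

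Of 4 genes for the beta and gamma parts of elongation factor 1, YGR201C alone passed. TEF4 and CAM1, the gamma subunits, had -0.10 ± 0.05 and -0.03 ± 0.05, and EFB1, the beta subunit, had -0.08 ± 0.06 in ect1Δ pct1Δ over WT. CAM1 shares 167 bases with YGR201C at 67.1% identity. Of 7 genes related to Cdc25 or rhodanese, ARR2, the arsenate reductase gene, passed and fell by 2.28 ± 0.48 on the log2 scale in ect1Δ pct1Δ over WT (edgeR with Benjamini-Hochberg adjustment, adjusted p = 0.0381), with 0 to 16 counts in the ect1Δ pct1Δ libraries and 31 to 34 in the WT libraries. The median of that list was -0.01.

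At the loci deleted in cpt1Δ ept1Δ no gene of the role lists passed edgeR's test (Benjamini-Hochberg adjusted) in cpt1Δ ept1Δ over WT. Of 8 genes of the TOM complex 7 had positive values with a median of 0.06, and TOM6, with 0.17 ± 0.07, was the 1 with an unadjusted p below 0.05. Of 10 genes of cytosolic iron-sulfur protein assembly, CIA2 alone had an unadjusted p below 0.05, the median was 0.04, and CFD1 followed with 0.13 ± 0.08. Of 9 genes of hexokinases and glucose repression, DGR1 alone did, and HXK2, the main hexokinase, had -0.06 ± 0.05. Of 14 genes of meiosis and sporulation 13 were tested, the median was -0.05, and 3 had an unadjusted p below 0.05: NDT80, IME2, a kinase of early meiosis, with -0.51 ± 0.18, and SPS4, a sporulation gene, with 0.31 ± 0.11. IME2 had a like value in ect1Δ pct1Δ over WT, -0.50 ± 0.19, where NDT80 had 0.02 ± 0.12. The medians of all tested genes were 0.00 in both comparisons with WT.

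Other states that log-phase cultures can hold were read with marker lists, since STF2 is itself a stationary phase gene. Of 15 stationary phase markers 12 were tested. In ect1Δ pct1Δ over WT 1 of them rose, STF2, 9 were positive and the median was 0.25; without STF2 the median was 0.21 over 11 genes and none passed. In cpt1Δ ept1Δ over WT none passed, 9 were positive and the median was 0.10. The summed FPKM of the 14 markers other than STF2 ran from 268 to 297 in ect1Δ pct1Δ. It ran from 263 to 293 in cpt1Δ ept1Δ and from 252 to 262 in WT. The deletion strains overlapped each other and lay above WT, by little in cpt1Δ ept1Δ (lowest library 263.35, highest in WT 262.42). Within this sum HSP12 and HSP26 rose most over WT in mean FPKM. HSP12 averaged 38.61 FPKM in ect1Δ pct1Δ, 31.7 in cpt1Δ ept1Δ and 25.46 in WT. HSP26 averaged 52.53, 59.55 and 43.21 FPKM in the same order. SNZ1 and HSP104 averaged below WT in both deletion strains, SNO1 in ect1Δ pct1Δ and SSA3 in cpt1Δ ept1Δ. The sum without HSP12 and HSP26 was not taken. Of 20 general stress genes under Msn2, 1 rose in ect1Δ pct1Δ over WT, YGP1, a secreted glycoprotein gene, with 0.55 ± 0.11 (edgeR with Benjamini-Hochberg adjustment, adjusted p = 0.0352), 19 were positive and the median was 0.18, against 11 positive with a median of 0.04 in cpt1Δ ept1Δ over WT. HSP12 and HSP26 had 0.59 ± 0.25 and 0.30 ± 0.11 in ect1Δ pct1Δ over WT. In cpt1Δ ept1Δ over WT they had 0.36 ± 0.24 and 0.47 ± 0.11, and neither gene passed the test in either comparison. The negative stationary phase markers in ect1Δ pct1Δ over WT were SNZ1 (-0.18 ± 0.10), SNO1 (-0.18 ± 0.19) and HSP104 (-0.03 ± 0.07). The negative gene of the stress list there was TSL1 (-0.22 ± 0.15), and none of these passed the test. The summed FPKM of the stress list, which does not hold STF2, ran from 3463 to 3594 in ect1Δ pct1Δ, from 2894 to 3263 in cpt1Δ ept1Δ and from 3075 to 3180 in WT, with the ect1Δ pct1Δ libraries above the 6 others. Most of that sum is HOR7, with a mean of 2629 FPKM in ect1Δ pct1Δ, 2253 in cpt1Δ ept1Δ and 2362 in WT. HOR7 had 0.15 ± 0.06 in ect1Δ pct1Δ over WT and did not pass the test. The sum without HOR7 was not taken. The part of the stress genes in the value of STF2 was not tested. The summed FPKM of the meiosis and sporulation list ran from 139 to 163 in ect1Δ pct1Δ, from 140 to 150 in cpt1Δ ept1Δ and from 137 to 156 in WT. That sum holds NDT80 itself. Its largest part is SUM1, with a mean of 38.4 FPKM in ect1Δ pct1Δ, 37.5 in cpt1Δ ept1Δ and 38.5 in WT. DMC1, the recombinase used only in meiosis, averaged 4.37 FPKM in ect1Δ pct1Δ, 3.56 in cpt1Δ ept1Δ and 3.91 in WT.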

How the data were processed

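RNA was sequenced in 9 libraries, grouped by their titles. The authors deposited 1 table that gives, per the file headers, counts and FPKM values of every gene in each library. HISAT2 2.2.1, HTSeq 0.6.1 and build R64 are named per the submitters' processing notes; the sources used here do not state strand use. The deposited FPKM equalled count over exonic length and library total for 99.93% of values, within 0.0051 or within a small relative difference. Columns of 3 libraries with no matching sample were not used, and 4 emptied lines were left out. Of 7122 identifiers 6019 had the same position in RefSeq R64, the flanking and deleted genes included.

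Counts were fitted with edgeR 4.0.16 in R 4.3.3 (filterByExpr, TMM factors of 0.981 to 1.02, glmQLFit and glmQLFTest, a mean per group, all 9 libraries), with a biological coefficient of variation of 6.24%. Two-sided p-values were adjusted over 6083 genes (Benjamini-Hochberg) and called below 0.05; the SE is the log2 fold change over the square root of F. With 3 libraries against 3 an exact permutation test cannot go below 0.1. The fit was tested on simulated data. FPKM values were tested with limma 3.58.1 on log2(FPKM + 1) and counts with DESeq2 1.42.0 as alternatives. Genes named are the flanking and deleted genes, the next tested genes and called neighbours. Others are the called or lowest-p genes of each role list, paralogs and the 3 genes most like each called one. YPP1, CIR1, HSP12, HSP26, HOR7, INH1, STF1, EFB1, HXK2, IME2, SPS4, SUM1 and DMC1 were added with their values known. SNZ1, SNO1, HSP104, SSA3 and TSL1 were added in the same way. Members and lists were chosen with earlier results of these data known. Replicate numbers did not pair the libraries.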

Additional observations from a re-analysis of the deposited data

How the results depend on the processing

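The counts of called flanking genes (2 beside their own deletion, 0 in the other strain, 2 between the strains) were the same under all 16 alternatives: another normalisation, DESeq2, limma on FPKM with pseudocounts of 1 and 0.1, no filter, 2 groups only, the replicate block and each library left out. All 4 deleted genes passed with the block and without each library, and the wider neighbourhood held 2 called genes with 10 genes a side and with the other normalisation. STF2 over WT stayed between 0.738 and 0.879 and YGR201C between 1.47 and 1.81. NDT80 ranged from -0.604 to -0.462 with an adjusted p of 0.0851 to 0.645, and PRP18 from -0.626 to -0.332. Unadjusted p below 0.05, counted under alternatives chosen after seeing the data, held for 4 to 7 flanking genes beside their own deletion and for 0 to 1 in the other strain when a library was left out; NDT80, STF2 and YGR201C were below it in all 16. The role lists held 4 called genes, and 2 with the flanking genes left out, by construction.

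Small values in the other strain turned sign when a library was left out: YGR201C (-0.099 to 0.244) and CIA2 (-0.00895 to 0.144) without WT replicate 1, YCH1 (-0.0204 to 0.0834) without cpt1Δ ept1Δ replicate 3, and NDT80 (-0.067 to 0.106) without WT replicate 3, ect1Δ pct1Δ replicate 1 (-0.00323) or 3 (-0.0496); the cause was not tested. Over all genes, the 28 calls of ect1Δ pct1Δ over WT became 13 and 12 with limma and 17 without WT replicate 1, and the 8 of cpt1Δ ept1Δ over WT became 17 with DESeq2, 4 with limma and 4 without cpt1Δ ept1Δ replicate 2. With the replicate number as a block the flanking calls were 2, 0 and 2 and the calls over all genes 23, 7 and 11; deviations of same-numbered libraries correlated at -0.268 to 0.264, and 2 of 9 libraries correlated best with their own number. DGR1 rested on 14 to 26 counts per library, and its unadjusted p over the alternatives ran from 0.00466 to 0.0977.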
